A study of Mus musculus with 36 samples.

Results

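Cajal-Retzius neurons are among the earliest neurons of the cerebral cortex, and 10 genes that mark them and the first neurons of the preplate were followed here: Reln, Calb2, Cacna2d2, Lhx1, Lhx5, Ebf1, Ebf2, Ebf3, Nhlh1 and Nhlh2. The genes were taken by name and make up 10 of the 46603 genes in the count tables. All 10 passed the filter on low counts at both stages, among 18810 genes tested at E12.5 and 18435 at E10.5. Cacna2d2 was lower in Chd8neo/neo and Chd8neo/- neocortices at E12.5 and in cKO telencephalic vesicles at E10.5, and Ebf1 was lower in Chd8neo/neo neocortices than in both Chd8+/+ and Chd8+/- neocortices. The calls in Chd8neo/neo were lost in some alternative fits. No member was called higher in the main fits. In some alternatives, Lhx1 and Lhx5 were called higher and Reln lower in Chd8neo/-, and Reln and Nhlh1 were called lower in Chd8neo/neo.

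Chd8 encodes a chromatin remodeller, and the study lowered it in mice on a C57Bl/6J background to learn how the developing forebrain responds to graded amounts of it. At E12.5, RNA came from the neocortex of single embryos of different litters, 3 each of the genotypes Chd8+/+, Chd8+/-, Chd8neo/neo and Chd8neo/-. The minus allele is a null made by Cre-driven removal of an exon throughout the embryo, and the neo allele carries a selection cassette in an intron that lowers expression without abolishing it. At E10.5, RNA came from telencephalic vesicles, with 2 embryos pooled in each of 3 Ctrl and 3 cKO libraries. The cKO embryos were Sox1-Cre; Chd8f/f, so that the floxed exon was removed in the neural progenitors in which Sox1-Cre is active. The labels describe Ctrl as a combination of Chd8f/f and Chd8 f/+, whereas the methods name Chd8flox/flox alone and write no Cre for this group. All 3 mutant genotypes at E12.5 were compared with the same 3 Chd8+/+ libraries, so these comparisons are not independent of each other.

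Cajal-Retzius neurons arise at the borders of the cortex, chiefly at the cortical hem along its medial edge, in the septum and at the pallial-subpallial boundary, or antihem, and spread over the surface of the cortex beneath the meninges. They secrete reelin, the product of Reln, which binds the receptors encoded by Vldlr and Lrp8 on migrating cortical neurons, leads to phosphorylation of the adaptor Dab1 and orders the neurons into layers. Calb2 encodes calretinin, a calcium-binding protein, and Cacna2d2 an auxiliary alpha2delta subunit of voltage-gated calcium channels. The other members encode transcription factors: Lhx1 and Lhx5 are LIM homeodomain proteins, Ebf1, Ebf2 and Ebf3 belong to the EBF family, and Nhlh1 and Nhlh2 are basic helix-loop-helix proteins of newly formed neurons. These genes are not specific to Cajal-Retzius neurons, since Lhx1, Lhx5, Ebf and Nhlh genes are also used by neurons of the diencephalon and by other young neurons. The tissue was sequenced in bulk, so fewer cells of a type and less RNA per cell cannot be told apart in any result below.

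Total counts ranged from 38774591 to 61051667 per library at E12.5 and from 49632937 to 68488879 at E10.5, and levels are given as CPM, counts scaled to the library total after TMM adjustment. Chd8 itself was at 237 ± 2.41 CPM (SD, n = 3) in Chd8+/+, 167 ± 3.04 in Chd8+/-, 209 ± 5.64 in Chd8neo/neo and 149 ± 8.38 in Chd8neo/- neocortices, and at 171 ± 12 in Ctrl and 121 ± 4.78 in cKO vesicles. It was called lower in every mutant group, and higher in Chd8neo/neo than in Chd8+/- (log2 fold change 0.33, adjusted p = 0.00897, edgeR). This is not the order of the allelic series as the study describes it. Counts over the whole gene also hold reads from outside the exon removed in the null and floxed alleles, and do not separate normal transcripts from those that splice into the cassette of the neo allele. Emx2, 1 of 9 markers of the dorsal telencephalon, lay between 109 and 160.4 CPM in the 12 libraries at E12.5. It lay between 138 and 164 CPM in the 6 at E10.5. Summed at E12.5, the dorsal markers lay between 1352 and 1733 CPM, with the lowest sum in Chd8+/- replicate 2. Ventral telencephalic markers summed to 701 to 895 CPM, so the tissue also held ventral transcripts. Trp73, a defining gene of Cajal-Retzius neurons that is not among the members, lay between 29 and 38.9 CPM at E12.5 and between 1.13 and 12.6 CPM at E10.5.

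Several libraries stood apart from others of their group in the members themselves. In Chd8+/- replicate 2, 4 of the 10 members were at their highest of the 12 libraries, and so were 12 of 14 markers of diencephalon, hypothalamus and midbrain, 8 of 9 markers of meninges and mesenchyme and the antihem marker Dbx1 (27 CPM against 4.57 to 14.4 in the other 11). In Chd8neo/neo replicate 2 only 1 of these 14 markers was at its highest, the hypothalamic gene Otp (44.5 CPM against 1.02 to 27.8). Its level of Dbx1 was the second highest (14.4 CPM). In Chd8neo/neo replicate 1, 17 of 20 early pan-neuronal genes were at their lowest. At E10.5, Ctrl replicate 2 held the lowest level of 6 of the 10 members and of 11 of the 20 early pan-neuronal genes, and its Xist level of 3.09 CPM set it apart from the other 5 libraries (708 to 2141 CPM). Xist is transcribed from the inactive X chromosome of female cells. At E12.5 it was high in Chd8+/- replicate 1, Chd8neo/neo replicates 1 and 2 and Chd8+/+ replicate 3 (1458 to 2043 CPM) and at most 2.49 CPM in the other 8. The sex of the embryos is not in the labels.

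Set against exon length (RPKM), Nhlh1 had the highest level of the members in Chd8+/+ neocortex (25.4 ± 1.49, SD, n = 3) and Lhx1 the lowest (3.51 ± 0.390). Between them lay Nhlh2 (11.4 ± 0.800), Calb2 (10.3 ± 1.29), Cacna2d2 (8.30 ± 0.958), Reln (8.05 ± 0.776), Ebf3 (7.57 ± 0.335), Ebf2 (5.5 ± 0.201), Lhx5 (5.46 ± 0.863) and Ebf1 (4.51 ± 0.446). Neighbours in this order differed by more than the SD of either at 5 of the 9 steps, Nhlh1 above Nhlh2, Calb2 above Cacna2d2, Ebf3 above Ebf2, Lhx5 above Ebf1 and Ebf1 above Lhx1. Nhlh2 and Calb2, Cacna2d2 and Reln, Reln and Ebf3, and Ebf2 and Lhx5 did not differ beyond their spread. In Ctrl vesicles at E10.5 the order was different. Lhx5 was the highest (14.2 ± 1.39), Ebf3 was at 4.07 ± 0.370 and Cacna2d2 at 3.73 ± 0.229, and Ebf1 was the lowest (0.184 ± 0.0252). The other 6 members had means between 0.515 and 2.49.

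Between these control groups, 9 of the 10 members had all 3 Chd8+/+ libraries at E12.5 above all 3 Ctrl libraries at E10.5, and Lhx5 alone lay the other way round. The ratio of the mean CPM at E12.5 to that at E10.5 was 24.5 for Ebf1, 15.6 for Reln, 13.1 for Calb2 and 10.2 for Nhlh1. It was 6.16 for Lhx1, 5.45 for Nhlh2, 4.71 for Ebf2, 2.23 for Cacna2d2 and 1.86 for Ebf3, whereas Lhx5 was 2.60-fold higher at E10.5. The stages differed in tissue, genotype, pooling and sequencing runs, so stage cannot be told apart from these, and the ratios were not tested.

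**Figure D1:**
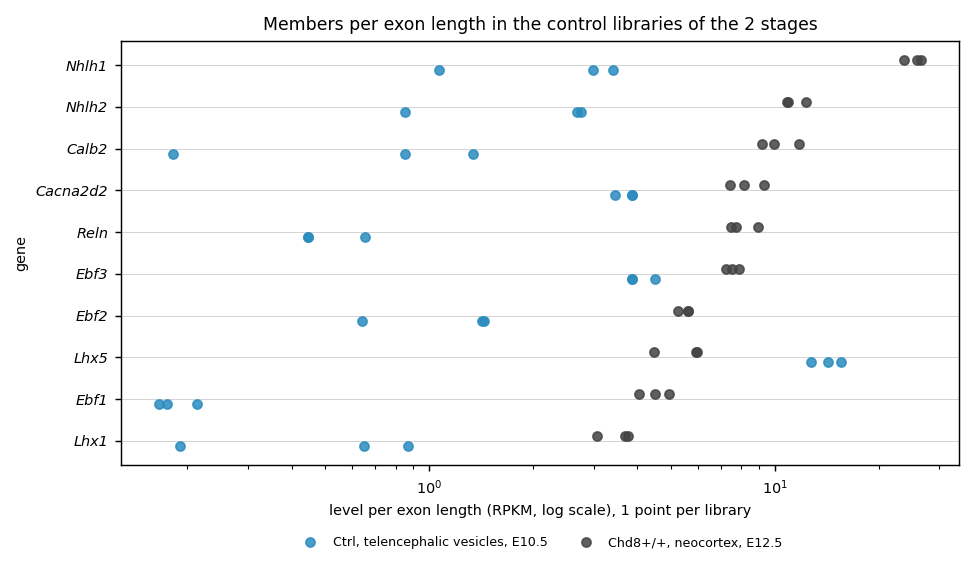
Level of each member per exon length (RPKM, log scale) in the 3 Ctrl telencephalic vesicle libraries at E10.5 (blue) and the 3 Chd8+/+ neocortex libraries at E12.5 (dark grey), 1 point per library. Lhx5 is the only member whose E10.5 points all lie above its E12.5 points, and Ebf1 shows the widest gap, with a ratio of mean CPM of 24.5.

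Cacna2d2 (ENSMUSG00000010066, chr9:107399612-107529343 on the plus strand of GRCm38) gave the most regular pattern. Its level was 74.1, 64.9 and 59.0 CPM in the 3 Chd8+/+ libraries, 60.7, 56.4 and 54.8 in Chd8+/-, 51.3, 51.7 and 58.7 in Chd8neo/neo and 50.6, 49.6 and 51.5 in Chd8neo/- neocortices. The Chd8neo/neo and Chd8neo/- libraries all lay below the Chd8+/+ libraries, by as little as 58.7 against 59.0 CPM in Chd8neo/neo, and the Chd8+/- libraries overlapped with them. The log2 fold change against Chd8+/+ was -0.20 ± 0.0755 (SE) in Chd8+/-, -0.29 ± 0.0754 in Chd8neo/neo and -0.38 ± 0.0755 in Chd8neo/-. In edgeR's quasi-likelihood test with Benjamini-Hochberg adjustment over all genes, the adjusted p was 0.701, 0.0317 and 0.00573, so that Cacna2d2 fell in Chd8neo/neo and Chd8neo/- neocortices. The difference between Chd8neo/- and Chd8neo/neo was not called (log2 fold change -0.09 ± 0.0756, adjusted p = 0.747), nor was that between Chd8neo/neo and Chd8+/- (-0.09 ± 0.0756, adjusted p = 0.52).

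At E10.5, Cacna2d2 was at 27.5, 30.6 and 30.7 CPM in Ctrl and at 21.7, 21.7 and 21 CPM in cKO vesicles. The groups did not overlap, and the spread within the cKO group was the smaller (SD 0.409 against 1.82 CPM). Cacna2d2 was called lower by a log2 fold change of -0.46 ± 0.0741, with an adjusted p of 0.00363. The calls in cKO and in Chd8neo/- held in every alternative fit and without any 1 library. The call in Chd8neo/neo was lost without Chd8neo/neo replicate 1 (adjusted p = 0.109) or 2 (0.118), without Chd8+/+ replicate 1 (0.0871) or 2 (0.0771), and with Xist as a covariate (0.0515). It also fell short with the first run alone (0.0506) and when only the 2 groups compared were fitted (0.0928).

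The promoter of Cacna2d2 is shown with those of Ebf1 because these are the only members that were called in the main edgeR fits. Some alternative fits also called other members. RefSeq promoters of GRCm38.p6, from 250 bases before to 50 bases after the start of transcription, were at hand for 7 members in 8 windows and not for Calb2, Lhx5 and Ebf2. They are written 5′ to 3′ on the strand of the gene, with every CG dinucleotide in capitals.
Cacna2d2, chr9:107399630-107399929, plus strand: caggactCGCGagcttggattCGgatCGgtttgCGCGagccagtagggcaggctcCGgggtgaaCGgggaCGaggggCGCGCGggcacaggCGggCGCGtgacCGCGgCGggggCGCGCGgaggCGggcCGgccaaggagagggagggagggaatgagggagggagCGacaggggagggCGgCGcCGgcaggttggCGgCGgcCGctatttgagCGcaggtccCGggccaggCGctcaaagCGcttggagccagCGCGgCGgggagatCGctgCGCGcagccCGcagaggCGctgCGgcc
Ebf1, first start, chr11:44617850-44618149, plus strand: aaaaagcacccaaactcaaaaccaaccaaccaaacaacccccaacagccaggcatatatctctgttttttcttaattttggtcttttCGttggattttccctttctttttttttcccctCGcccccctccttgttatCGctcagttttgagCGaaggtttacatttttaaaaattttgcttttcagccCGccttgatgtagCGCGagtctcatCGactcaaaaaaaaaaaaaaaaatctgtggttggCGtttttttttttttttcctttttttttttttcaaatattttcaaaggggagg
Ebf1, second start, chr11:44619978-44620277, plus strand: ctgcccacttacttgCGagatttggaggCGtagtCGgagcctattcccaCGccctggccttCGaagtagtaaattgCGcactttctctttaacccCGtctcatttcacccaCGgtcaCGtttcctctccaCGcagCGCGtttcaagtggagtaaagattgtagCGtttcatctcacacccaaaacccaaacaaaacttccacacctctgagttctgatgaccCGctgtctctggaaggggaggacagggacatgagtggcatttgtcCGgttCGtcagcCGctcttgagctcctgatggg

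The promoters of the called members had little in common in this respect. The Cacna2d2 window held 43 CG dinucleotides, more than 97.4% of the 32851 promoters of the table, whereas the Ebf1 windows held 9 and 17, against a median of 7 over all promoters. Reln (47), Ebf3 (46) and Lhx1 (31) were also rich in CG, and Nhlh1 and Nhlh2 held 2 each. The palindrome bound by EBF proteins, TCCC and GGGA with 2 bases of any kind between them, was in none of the 8 windows and in 0.904% of all promoters. The homeodomain site TAATTA was also in none of them and in 5.29% of all.

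Ebf1 (ENSMUSG00000057098, chr11:44617317-45008091, plus strand) encodes a factor of the EBF family that acts in differentiating neurons and also in other lineages. It is also expressed in ventral telencephalon, mesenchyme and pericytes. Its level was 44.0, 48.3 and 39.6 CPM in Chd8+/+, 48.8, 45.7 and 48.7 in Chd8+/-, 36.1, 30.1 and 37.3 in Chd8neo/neo and 38.7, 37.2 and 40.9 in Chd8neo/- neocortices. The Chd8neo/neo libraries lay below every Chd8+/+ and Chd8+/- library, and those of Chd8neo/- overlapped with both Chd8+/+ and Chd8neo/neo. Ebf1 fell in Chd8neo/neo, with a log2 fold change of -0.35 ± 0.0822 and an adjusted p of 0.0216 (edgeR). In Chd8neo/- the log2 fold change was -0.18 ± 0.082 (adjusted p = 0.19), and in Chd8+/- it was 0.12 ± 0.0819 (adjusted p = 0.876). Summed ventral telencephalic markers were at 720.6 to 858.57 CPM in Chd8neo/neo and 858.75 to 888.12 CPM in Chd8+/+ neocortices. They were at 777 to 895 CPM in Chd8+/- and 701 to 850 CPM in Chd8neo/-. Endothelial and pericyte markers summed to 224 to 251 CPM in Chd8neo/neo, 256 to 267 in Chd8+/+, 235 to 252 in Chd8+/- and 265 to 292 in Chd8neo/-. Meningeal and mesenchymal markers overlapped between Chd8neo/neo and Chd8+/+. The part of these cells in the fall of Ebf1 was not tested.

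Tested directly, Ebf1 was lower in Chd8neo/neo than in Chd8+/- neocortices by a log2 fold change of -0.47 ± 0.0823 (adjusted p = 0.0147). Chd8neo/- and Chd8neo/neo differed by 0.18 ± 0.0823 on the log2 scale, which was not called (adjusted p = 0.593). Both calls were lost in some alternatives while the direction stayed. Against Chd8+/+, the log2 fold change was -0.26 without Chd8neo/neo replicate 2 (adjusted p = 0.082) and -0.27 without Chd8+/+ replicate 2 (0.0947). With only the 2 groups fitted it was -0.35 with a larger SE of 0.0954 (0.0802). Against Chd8+/-, it was -0.38 without Chd8neo/neo replicate 2 (adjusted p = 0.0541), -0.46 without Chd8+/- replicate 1 (0.0587) and -0.47 with only the 2 groups fitted (0.0544). With both replicates 2 of Chd8+/- and Chd8neo/neo left out, an alternative chosen after seeing the data, neither call remained (adjusted p = 0.0686 and 0.0683), while the log2 fold changes were -0.26 and -0.41.

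At E10.5, Ebf1 was near the lower end of detection, at 1.70, 1.61 and 2.08 CPM in Ctrl and 2.09, 2.28 and 2.55 CPM in cKO vesicles, on 81 to 172 counts per library. Each cKO library lay above each Ctrl library, but the log2 fold change of 0.36 ± 0.157 was not called (adjusted p = 0.164). Thus the values of Ebf1 lay on opposite sides of the control at E12.5 in Chd8neo/neo and at E10.5 in cKO; these are different alleles, tissues and stages, and the difference between them was not tested.

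Ebf2 and Ebf3, the other EBF genes among the members, were not called, and their difference from Ebf1 was not tested. Ebf2, a marker of Cajal-Retzius neurons of the hem, was at 36.5, 39.0 and 38.8 CPM in Chd8+/+, 35.7, 41.2 and 38.9 in Chd8+/-, 40.9, 41.0 and 33.6 in Chd8neo/neo and 38.1, 40.2 and 40.0 in Chd8neo/- neocortices. All genotypes overlapped, and the log2 fold changes against Chd8+/+ lay between 0.02 and 0.05 with an SE of at most 0.074. Ebf3 was between 33.4 and 45.3 CPM in 11 libraries and at 69.3 CPM in Chd8+/- replicate 2. Its log2 fold change was 0.31 ± 0.24 in Chd8+/-, 0.01 ± 0.24 in Chd8neo/neo and 0.12 ± 0.24 in Chd8neo/-, with no call.

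Reln (ENSMUSG00000042453, chr5:21884454-22344702, minus strand) encodes the secreted glycoprotein by which Cajal-Retzius neurons act on migrating neurons. It was the member with the highest CPM at E12.5, at 177, 212 and 184 CPM in Chd8+/+, 216, 153 and 194 in Chd8+/-, 127, 108 and 172 in Chd8neo/neo and 143, 155 and 154 in Chd8neo/- neocortices. Every Chd8neo/neo and Chd8neo/- library lay below the lowest Chd8+/+ library, and the Chd8+/- libraries spanned both ranges. Relative to Chd8+/+, the log2 fold change was -0.02 ± 0.175 in Chd8+/-, -0.49 ± 0.176 in Chd8neo/neo and -0.34 ± 0.175 in Chd8neo/-. None was called (adjusted p = 0.995, 0.12 and 0.258). In other fits the lower values passed the threshold: in Chd8neo/neo without its replicate 3 (-0.71, adjusted p = 0.0152), and in Chd8neo/- when only those 6 libraries were fitted (-0.34, adjusted p = 0.00476).

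In telencephalic vesicles at E10.5, Reln was at 10.6, 10.6 and 15.5 CPM in Ctrl and at 11.3, 16.4 and 17.5 CPM in cKO. The groups overlapped, with a log2 fold change of 0.30 ± 0.207 (adjusted p = 0.402).

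Calb2 (ENSMUSG00000003657, chr8:110142539-110168206, minus strand) was close to level across the genotypes at E12.5, at 13.2, 16.8 and 14.3 CPM in Chd8+/+, 12.6, 14.3 and 13.2 in Chd8+/-, 11.3, 13.3 and 14.2 in Chd8neo/neo and 14, 14.9 and 15.9 in Chd8neo/- neocortices. The genotypes overlapped. The log2 fold changes against Chd8+/+ were -0.14 ± 0.0996, -0.19 ± 0.099 and 0.02 ± 0.0986 in that order of mutants, with adjusted p of 0.887, 0.259 and 0.931. At E10.5 Calb2 was sparse, at 100, 13 and 68 counts in Ctrl and 43, 141 and 91 counts in cKO libraries, and its log2 fold change had an SE of 0.738.

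**Figure D2:**
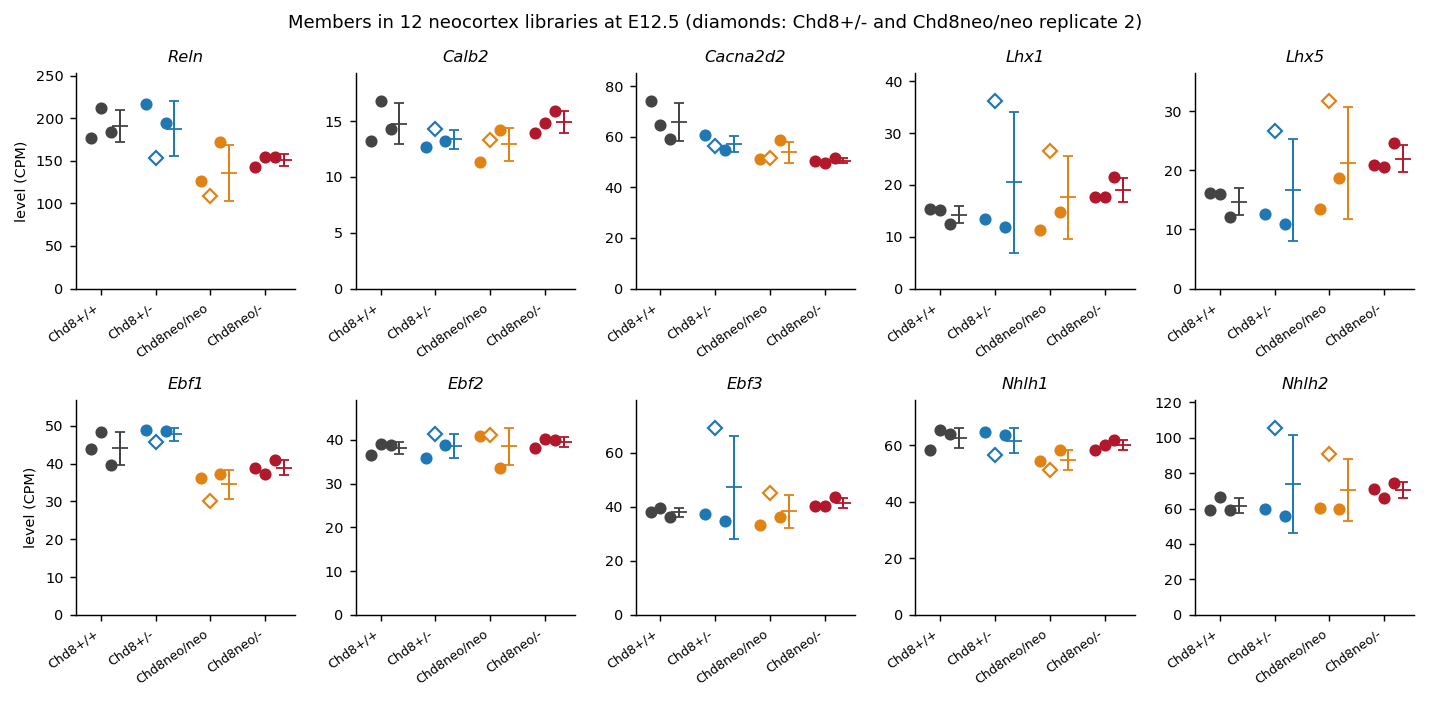
Level of each member (CPM, axes from 0) in the 12 neocortex libraries at E12.5, 1 point per library with the mean and SD of the 3 libraries beside them. Open diamonds mark Chd8+/- replicate 2 and Chd8neo/neo replicate 2, which reach 36.1 and 26.6 CPM for Lhx1 and 106 and 90.9 CPM for Nhlh2. The mean of Cacna2d2 falls from Chd8+/+ to Chd8neo/-, where its spread is small. No difference between neighbouring genotypes was called for it, and a trend was not tested.

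Lhx1 (ENSMUSG00000018698, chr11:84518284-84525535, minus strand) and Lhx5 (ENSMUSG00000029595, chr5:120431699-120441223, plus strand) were the members with the largest scatter between embryos at E12.5. Lhx1 was at 15.3, 15.1 and 12.5 CPM in Chd8+/+, 13.5, 36.1 and 11.8 in Chd8+/-, 11.3, 26.6 and 14.8 in Chd8neo/neo and 17.6, 17.6 and 21.6 in Chd8neo/- neocortices. Lhx5 was at 16.1, 16 and 12 CPM in Chd8+/+, 12.6, 26.6 and 10.9 in Chd8+/-, 13.4, 31.6 and 18.7 in Chd8neo/neo and 20.8, 20.5 and 24.6 in Chd8neo/- neocortices. In both genes replicate 2 of Chd8+/- and of Chd8neo/neo stood above all other libraries, and the 3 Chd8neo/- libraries lay above the 3 Chd8+/+ libraries.

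In the fit of all 12 libraries, the log2 fold change in Chd8neo/- was 0.41 ± 0.46 for Lhx1 and 0.58 ± 0.394 for Lhx5, without a call (adjusted p = 0.642 and 0.405). The SE was smaller without replicate 2 of Chd8+/- and of Chd8neo/neo, which belong to neither group of this comparison. With both left out, the log2 fold changes were 0.40 ± 0.118 and 0.58 ± 0.145 and passed the threshold (adjusted p = 0.0455 and 0.0313). With only Chd8neo/- and Chd8+/+ fitted they passed as well (adjusted p = 0.0139 and 0.00566). The first of these alternatives was chosen after the data were seen, and the call in either gene depends on how the spread is estimated.

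For Chd8+/- and Chd8neo/neo, leaving out both libraries changed the direction of several members. In Chd8+/- the log2 fold change moved from 0.52 to -0.18 for Lhx1, from 0.18 to -0.33 for Lhx5, from 0.31 to -0.07 for Ebf3 and from 0.26 to -0.09 for Nhlh2. In Chd8neo/neo it moved from 0.31 to -0.12 for Lhx1, from 0.54 to 0.13 for Lhx5 and from 0.19 to -0.04 for Nhlh2. None of these values was called with or without the libraries.

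The markers of the regions from which such transcripts could come were summed in each library. The summed level of 14 markers of diencephalon, hypothalamus and midbrain lay between 128 and 142 CPM in Chd8+/+, between 104 and 229 CPM in Chd8+/-, between 125 and 180 CPM in Chd8neo/neo and between 127 and 151 CPM in Chd8neo/- libraries, with the highest value of the 2 middle groups in replicate 2. The 3 antihem markers summed to 30.9 to 37.7 CPM in Chd8+/+, 33.3 to 65.3 in Chd8+/-, 36.7 to 54.4 in Chd8neo/neo and 35.3 to 38.5 in Chd8neo/-, again with replicate 2 the highest in both middle groups. Of the 14 markers of diencephalon, hypothalamus and midbrain, only Otp was at its highest of the 12 libraries in Chd8neo/neo replicate 2. En1 and En2, genes of the midbrain, were at 0 counts in 6 and 3 of the 12 libraries. Their part in the results of Lhx1, Lhx5, Ebf3 and Nhlh2 was not tested. In Chd8neo/- the diencephalic and antihem sums overlapped with those of Chd8+/+. The sum of 10 cortical hem markers lay above that of Chd8+/+ (285 to 311 against 215 to 277.1 CPM). The hem sum was 202 to 270 CPM in Chd8+/- and 236 to 361 CPM in Chd8neo/neo. Its highest value was in Chd8neo/neo replicate 1, where Lhx1 was at 11.3 and Lhx5 at 13.4 CPM. The part of the hem in these results was not tested.

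**Figure D3:**
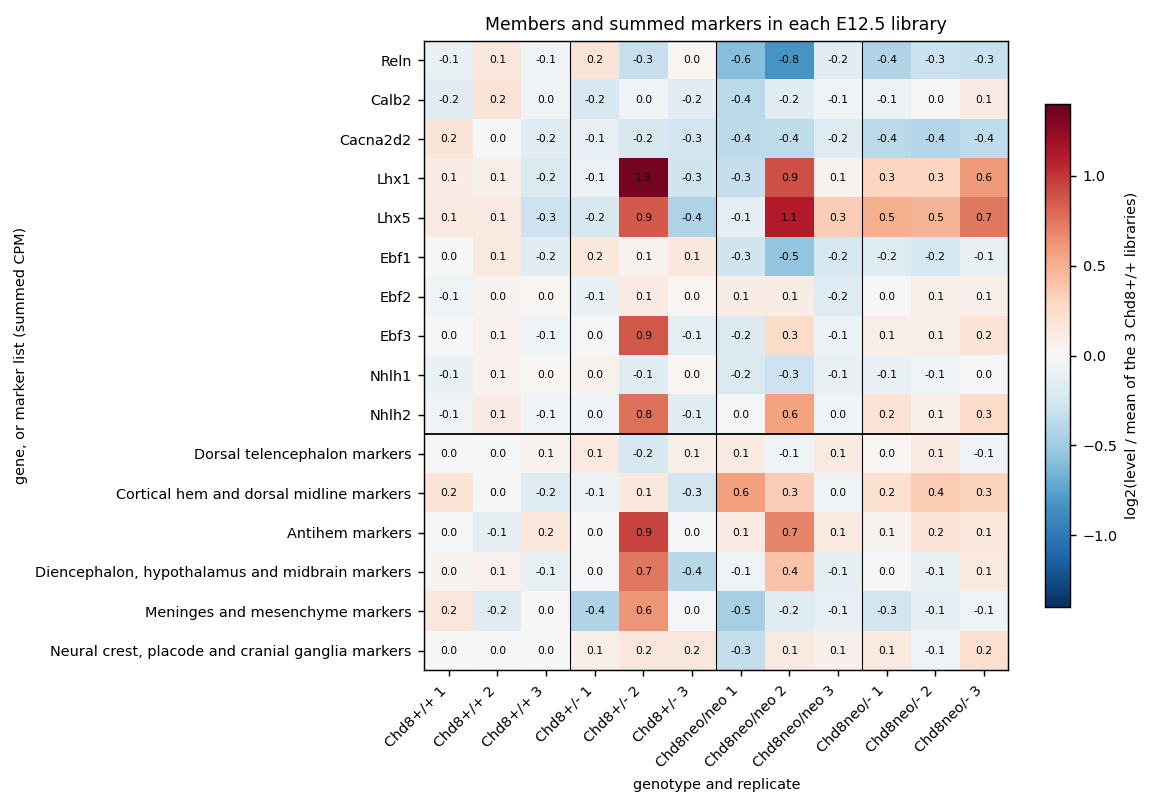
Log2 ratio of each E12.5 library to the mean of the 3 Chd8+/+ libraries, for the 10 members (above the line) and for the summed CPM of 6 marker lists (below it). The red cells of Lhx1, Lhx5, Ebf3 and Nhlh2 in Chd8+/- 2 and Chd8neo/neo 2 stand in the same columns as the red cells of the antihem and diencephalic markers, and Reln, Cacna2d2 and Ebf1 are blue in Chd8neo/neo and Chd8neo/-.

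Nhlh1 and Nhlh2 are close relatives that are switched on as neurons leave the cell cycle. Their levels did not run together across the libraries at E12.5, and the difference between them was not tested. Nhlh1 (ENSMUSG00000051251, chr1:172052292-172057573, minus strand) was at 58.5, 65.5 and 63.8 CPM in Chd8+/+, 64.7, 56.7 and 63.7 in Chd8+/-, 54.3, 51.3 and 58.4 in Chd8neo/neo and 58.5, 60.0 and 62.1 in Chd8neo/- neocortices. The Chd8neo/neo libraries lay just below the Chd8+/+ libraries, the highest at 58.4 against 58.5 CPM. The log2 fold change of -0.20 ± 0.0628 missed the threshold in edgeR (adjusted p = 0.0677) and passed it in DESeq2 (0.0414) and without the filter on low counts (0.0342). It also passed without Chd8neo/neo replicate 3 (0.0219), Chd8+/+ replicate 1 (0.0422) or Chd8+/- replicate 2 (0.0437). The log2 fold changes of Nhlh1 in Chd8+/- (-0.02 ± 0.0629) and Chd8neo/- (-0.06 ± 0.0627) were not called.

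Nhlh2 (ENSMUSG00000048540, chr3:102010076-102015492, plus strand) was between 55.8 and 74.5 CPM in 10 of the 12 libraries, at 106 CPM in Chd8+/- replicate 2 and at 90.9 CPM in Chd8neo/neo replicate 2. It thus followed Lhx1 and Lhx5 across the libraries, whereas Nhlh1 was at its lowest of each group in those same libraries. The log2 fold change of Nhlh2 was 0.26 ± 0.254 in Chd8+/-, 0.19 ± 0.253 in Chd8neo/neo and 0.19 ± 0.254 in Chd8neo/-, with no call. Both promoters are shown since the proteins bind E-boxes, CANNTG, a sequence that reads the same on either strand. The E-boxes are in capitals.
Nhlh1, chr1:172057547-172057846, minus strand: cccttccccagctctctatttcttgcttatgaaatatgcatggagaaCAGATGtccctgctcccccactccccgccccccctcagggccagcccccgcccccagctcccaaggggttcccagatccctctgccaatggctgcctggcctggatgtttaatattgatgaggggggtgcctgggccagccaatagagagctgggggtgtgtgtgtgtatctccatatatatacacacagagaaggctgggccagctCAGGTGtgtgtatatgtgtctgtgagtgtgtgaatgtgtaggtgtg
Nhlh2, chr3:102009895-102010194, plus strand: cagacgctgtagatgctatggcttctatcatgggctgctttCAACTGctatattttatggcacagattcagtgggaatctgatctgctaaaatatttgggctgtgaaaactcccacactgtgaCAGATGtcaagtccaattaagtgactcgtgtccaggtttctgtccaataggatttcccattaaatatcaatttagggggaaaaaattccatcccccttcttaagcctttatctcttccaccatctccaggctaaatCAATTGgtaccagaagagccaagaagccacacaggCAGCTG

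The Nhlh1 window held 2 E-boxes and the Nhlh2 window 4, of which 1 read CAGCTG. Such a match is common, since an E-box was in 72.3% of all 32851 promoters and CAGCTG, which is itself an E-box, in 16.3%. Of the 8 windows of members, 4 held an E-box.

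The counts of members called are set here beside those of all genes. In Chd8+/- neocortices no member was called against Chd8+/+ by edgeR or by DESeq2, and 4 of 18810 genes (0.0213%) were. At an unadjusted p under 0.05, 1 member (Cacna2d2) passed. No member had groups without overlap, against 11.4% of all genes. The median log2 fold change of the members was 0.07, against 0.00 over all genes.

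In Chd8neo/neo neocortices, 2 of the 10 members were called lower (Ebf1 and Cacna2d2) and none higher, against 4.45% of all genes called lower. Groups without overlap were found for 4 members, all lower (Reln, Ebf1, Nhlh1 and Cacna2d2), against 26% of all genes in either direction. The count ranged from 0 to 4 over the fits with 1 library left out, and was 0 without Chd8neo/neo replicate 2 or Chd8+/+ replicate 2 and 1 without Chd8neo/neo replicate 1. The median of the members was -0.09, with 5 above and 5 below 0, against 0.01 over all genes. The summed level of the 20 early pan-neuronal genes was 5078 to 6077 CPM in Chd8neo/neo, 5594 to 6363 in Chd8neo/-, 6679 to 7519 in Chd8+/- and 6305 to 7489 CPM in Chd8+/+ libraries. Within Chd8neo/neo, this sum and Cacna2d2 (51.3 CPM) were lowest in replicate 1, while Ebf1 was lowest in replicate 2 (30.1 CPM). The part of the pan-neuronal genes in the result was not tested.

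In Chd8neo/- neocortices, 1 member was called lower (Cacna2d2), against 5.99% of all genes called lower. Groups without overlap were found for 5 members, against 33.3% of all genes: Lhx1, Lhx5 and Ebf3 were higher, and Reln and Cacna2d2 were lower. The count was 3 with both replicates 2 of Chd8+/- and Chd8neo/neo left out and 4 with only the 2 groups fitted. The median was 0.03.

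Between the mutants, 1 member (Ebf1) was called lower in Chd8neo/neo than in Chd8+/-, against 3.28% of all genes. In an edgeR fit with the replicate numbers of all E12.5 groups as blocks, the adjusted p of Ebf1 was 0.0287. The number of genes called in this comparison then went from 994 to 572. In Chd8neo/- against Chd8neo/neo, no member was called by edgeR or DESeq2, against 0.0159% of all genes, and 1 (Nhlh1) passed an unadjusted p of 0.05.

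**Figure D4:**
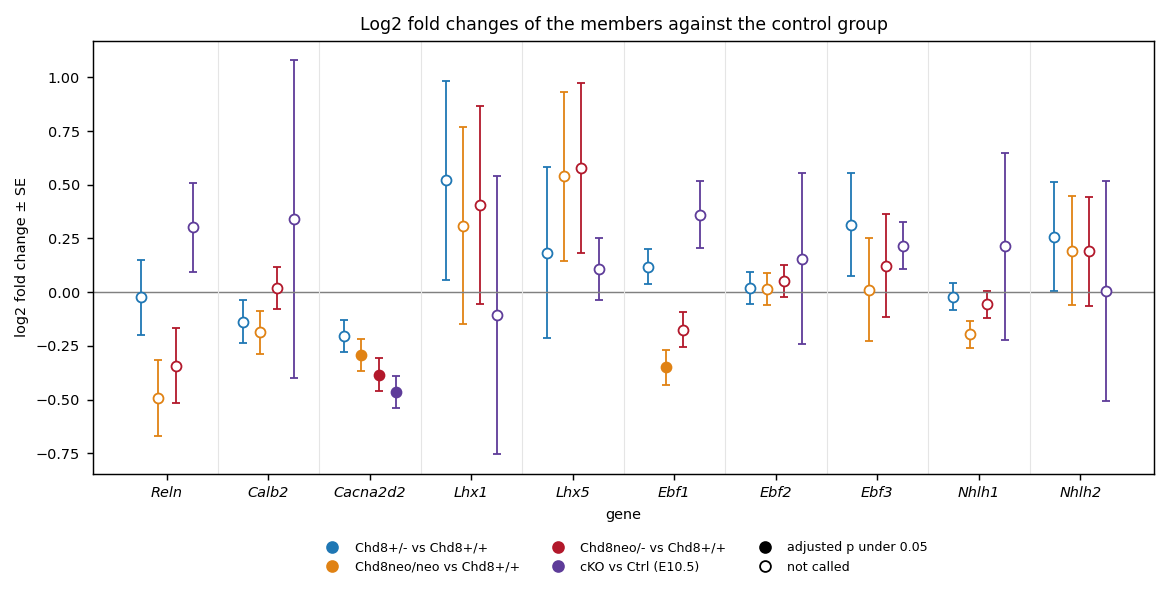
Log2 fold change ± SE of each member from edgeR for the 3 mutant genotypes against Chd8+/+ at E12.5 and for cKO against Ctrl at E10.5. Filled points have an adjusted p under 0.05: Cacna2d2 in Chd8neo/neo, Chd8neo/- and cKO, and Ebf1 in Chd8neo/neo, and the widest bars belong to Lhx1 and Lhx5 at E12.5 and to Calb2 and Lhx1 at E10.5.

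In cKO vesicles at E10.5, 1 member was called lower (Cacna2d2), against 5.7% of all genes, and no other member was called. Groups without overlap were found for 2 members (Cacna2d2 lower, Ebf1 higher), against 32.2% of all genes. The median of the members was 0.19, against 0.00 over all genes, with 8 above 0 and 2 below.

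Most members were scattered at this stage. Nhlh1 was at 8.37, 2.63 and 7.37 CPM in Ctrl and 6.10, 8.0 and 7.23 CPM in cKO, and Nhlh2 at 14.5, 4.62 and 14.9 CPM in Ctrl and 8.14, 13.4 and 12.6 CPM in cKO vesicles. Lhx1 was at 2.64, 0.777 and 3.54 CPM in Ctrl and 1.1, 3.10 and 2.27 CPM in cKO, and Ebf2 at 9.84, 4.42 and 9.98 CPM in Ctrl and 6.24, 11.7 and 9.09 CPM in cKO. In these 4 genes, as in Calb2, Ctrl replicate 2 was the lowest library and cKO replicate 1 the next lowest. The log2 fold changes of the 4 lay between -0.11 and 0.21 with SE from 0.397 to 0.646.

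Without Ctrl replicate 2 the values moved downward, to -0.14 for Nhlh1, -0.37 for Nhlh2, -0.51 for Lhx1, -0.14 for Ebf2 and -0.12 for Calb2, still without a call (adjusted p from 0.272 to 0.908). Early pan-neuronal genes moved with these members: their summed level was 484 CPM in Ctrl replicate 2 and 536 CPM in cKO replicate 1, the lowest values of the 6 libraries. Their part in the result was not tested. Lhx5 and Ebf3 did not follow this pattern. Lhx5 was at 34.3, 38.4 and 41.8 CPM in Ctrl and 37.1, 35.4 and 51.0 CPM in cKO (log2 fold change 0.11 ± 0.143), and Ebf3 at 19.4, 22.6 and 19.4 CPM in Ctrl and 23.3, 27.4 and 20.6 CPM in cKO (0.22 ± 0.11, adjusted p = 0.229).

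**Figure D5:**
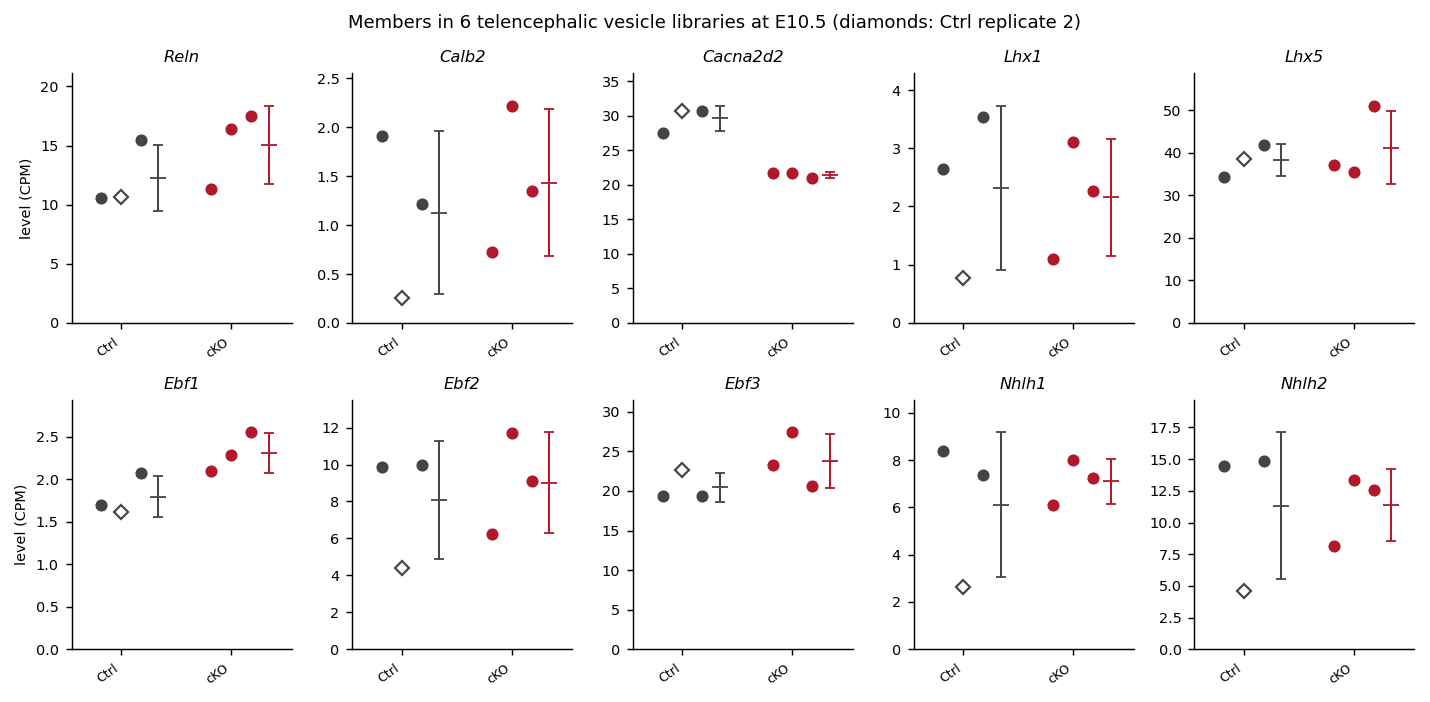
Level of each member (CPM, axes from 0) in the 3 Ctrl and 3 cKO telencephalic vesicle libraries at E10.5, with the mean and SD of each group. The open diamond, Ctrl replicate 2, is the lowest point of Calb2, Lhx1, Ebf1, Ebf2, Nhlh1 and Nhlh2, and Cacna2d2 is the member whose groups are the farthest apart relative to their spread.

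The spread between libraries of a group set how small a change could be seen. At E12.5 the SD of log2-CPM within groups was 0.554 for Lhx1, 0.485 for Lhx5, 0.313 for Nhlh2, 0.298 for Ebf3 and 0.225 for Reln, against a median of 0.0891 over the 14787 genes with a mean of at least 1 CPM. It was between 0.0847 and 0.138 for Nhlh1, Ebf2, Cacna2d2, Ebf1 and Calb2. At E10.5 it was over 1 log2 unit for Calb2, 0.964 for Lhx1, 0.732 for Nhlh2, 0.658 for Nhlh1 and 0.572 for Ebf2, and 0.0667 for Cacna2d2, the lowest of the members, against a median of 0.103. Thus a change of the size called in Cacna2d2 was not detectable in Lhx1, Calb2 or Nhlh2 at E10.5.

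The genes that act with the members were read from lists, and the first of these was the reelin pathway, 22 genes of receptors, adaptor, kinases and downstream effectors. In Chd8neo/neo neocortices 1 of 22 was lower, about the share of all genes called lower (4.45%): Pafah1b1, which encodes the LIS1 protein that regulates dynein (373 ± 5.22 against 409 ± 7.68 CPM, log2 fold change -0.13, adjusted p = 0.0483). In Chd8neo/- neocortices 3 of 22 were lower, against 5.99% of all genes: Pafah1b1 (-0.16, adjusted p = 0.019), the reelin receptor gene Lrp8 (157 ± 4.28 against 180 ± 11.2 CPM, -0.20, adjusted p = 0.0202) and Socs7, whose product takes part in the turnover of Dab1 (84.4 ± 1.48 against 98.4 ± 1.80 CPM, -0.22, adjusted p = 0.0036). In cKO vesicles 3 of 22 were higher, against 5.75% of all genes: Rapgef1, a guanine nucleotide exchange factor for Rap1 (193 ± 7.75 against 148 ± 13.3 CPM, 0.39, adjusted p = 0.00705), Src, a kinase of Dab1 (91.3 ± 2.37 against 75.3 ± 1.35 CPM, 0.28, adjusted p = 0.0102), and Limk1, a kinase of cofilin (0.25, adjusted p = 0.0205). The median log2 fold change of the list lay between -0.07 and 0.03 in the 6 comparisons.

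Of 15 other genes used to identify Cajal-Retzius neurons, 1 was lower in Chd8neo/neo neocortices, against 4.45% of all genes: Car10, a carbonic anhydrase-related gene (2.08 ± 0.514 against 3.41 ± 0.697 CPM, -0.71, adjusted p = 0.0446). In Chd8neo/- none was called by edgeR or DESeq2, and Zic2 had the smallest p (0.18, adjusted p = 0.112; 1 gene under an unadjusted p of 0.05). In cKO vesicles 2 of the 14 tested were higher, the dorsal midline factor Zic2 (89.7 ± 13.6 against 70.2 ± 1.54 CPM, 0.35, adjusted p = 0.0365) and Eya2 (0.44, adjusted p = 0.0482), and 2 were lower, Ndnf, a secreted neurotrophic factor gene (11.1 ± 1.1 against 15.1 ± 1.75 CPM, -0.44, adjusted p = 0.0265), and the chemokine receptor gene Cxcr4 (-0.33, adjusted p = 0.046). Of all genes tested there, 5.75% were called higher and 5.7% lower. Trp73 was not called in any comparison.

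Relatives of Calb2 and Cacna2d2 included the genes of several calcium channel subunits, and 3 of the 8 tested were lower in both Chd8neo/neo and Chd8neo/- neocortices, against 4.45% and 5.99% of all genes, with none higher. Cacna1b, the pore-forming subunit of N-type channels, was at 34.9 ± 4.36 CPM in Chd8+/+, 22.3 ± 2.60 in Chd8neo/neo (-0.64, adjusted p = 0.00511) and 21.5 ± 0.546 in Chd8neo/- (-0.70, adjusted p = 0.00139). Cacnb4, a beta subunit, fell by 0.41 and 0.35 on the log2 scale (adjusted p = 0.0099 and 0.0133), and Cacna2d3, another alpha2delta subunit, by 0.52 and 0.47 (adjusted p = 0.0222 and 0.0259). The median of the list was -0.24 in Chd8neo/neo and -0.25 in Chd8neo/-, against 0.01 and 0.00 over all genes. In cKO vesicles 1 of 8, the beta subunit gene Cacnb3, was higher (29.4 ± 0.728 against 22.5 ± 0.745 CPM, 0.38, adjusted p = 0.00673), and Cacna2d2 was thus the only one of these subunit genes called lower there.

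Early pan-neuronal genes were called lower: 6 of 20 in Chd8neo/neo and 2 of 20 in Chd8neo/- neocortices, against 4.45% and 5.99% of all genes, with none higher. Dcx, a microtubule-associated protein of migrating neurons, was at 874 ± 69.2 CPM in Chd8+/+, 653 ± 37.8 in Chd8neo/neo (-0.42, adjusted p = 0.00976) and 692 ± 60.8 in Chd8neo/- (-0.34, adjusted p = 0.0174). Map2, the dendritic microtubule-associated protein, fell by 0.32 and 0.21 on the log2 scale (adjusted p = 0.00842 and 0.0411). The median log2 fold change of the list was -0.30 in Chd8neo/neo and -0.16 in Chd8neo/-, against 0.01 and 0.00 over all genes. In cKO vesicles 1 of 20 was higher, Crmp1, and 1 lower, Snap25.

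Calls among the partners of the transcription factors and the preplate genes are set beside the shares of all genes. Of all genes, 3.71% were called higher in Chd8neo/neo, 5.48% in Chd8neo/- and 5.75% in cKO. Called lower were 4.45% in Chd8neo/neo, 5.99% in Chd8neo/- and 5.7% in cKO. Of 7 partners and inhibitors of basic helix-loop-helix proteins, Tcf3, an E protein, was higher in Chd8neo/neo (362 ± 8.47 against 309 ± 20.6 CPM, 0.23, adjusted p = 0.0232), Id2, an inhibitor, was higher in Chd8neo/- (42.9 ± 0.852 against 34.9 ± 2.69 CPM, 0.29, adjusted p = 0.036), and the inhibitor Id4 was lower in cKO vesicles (181 ± 11.3 against 248 ± 37.6 CPM, -0.46, adjusted p = 0.0204). Of 9 partners of the LIM homeodomain proteins, none was called against Chd8+/+ at E12.5 by edgeR or DESeq2, with at most 1 gene under an unadjusted p of 0.05 in each comparison, and 2 were lower in cKO vesicles (Ssbp4, -0.32, adjusted p = 0.0275, and Lmo3, -0.30, adjusted p = 0.0497). Of Ebf4, a further EBF gene, and the EBF partners Zfp423 and Zfp521, none was called at E12.5. Zfp423, a zinc finger protein that binds EBF proteins, was higher in cKO vesicles (115 ± 1.22 against 93.1 ± 7.09 CPM, 0.30, adjusted p = 0.0138). Of 9 preplate and subplate genes tested, Sox5 was lower in Chd8neo/- (84.5 ± 3.31 against 97.7 ± 5.5 CPM, -0.21, adjusted p = 0.0239). Over the 93 genes of all 8 lists tested at E12.5, none was called in Chd8+/- against Chd8+/+ by either tool, with 2 under an unadjusted p of 0.05.

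The genes whose levels followed the members most closely across the libraries were looked up among 14777 genes at E12.5, by their correlation with the mean of the 10 members after each was standardised. The highest were Chl1, a cell adhesion molecule (Pearson's r = 0.943, Spearman's rho = 0.804), Crb1 (0.933, 0.832), Efcab1 (0.926, 0.923) and Slc17a6, a vesicular glutamate transporter (0.923, 0.818), followed by Camk2n1 (0.908, 0.741) and Sncg (0.907, 0.832). These correlations lean on Chd8+/- replicate 2 and Chd8neo/neo replicate 1, which hold the extremes. Without these 2, r was 0.824 for Chl1, 0.777 for Crb1, 0.744 for Efcab1, 0.828 for Slc17a6, 0.702 for Camk2n1 and 0.7 for Sncg. These values describe the libraries and were not tested. Across the 6 libraries at E10.5 the highest of 14430 genes were Gnao1 (r = 0.991, rho = 0.771), Rngtt (0.99, 1.00), Gypc (0.987, 0.829) and Dcc (0.986, 0.943), with Ctrl replicate 2 and cKO replicate 1 farthest from the median. Without these 2 libraries, r was 0.92 for Gnao1, 0.979 for Rngtt, 0.915 for Gypc and 0.898 for Dcc.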

How the data were processed

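The authors isolated mRNA, sequenced both ends of the fragments, removed adaptors with Trim Galore 0.4.1, aligned to GRCm38 with TopHat2 2.1.0 and counted reads per gene with featureCounts 1.5.0. They deposited raw counts per gene and run, without normalization or filtering. Per the file headers, the E12.5 counting used Ensembl 82 annotation and no strand. Annotation and strand setting of the E10.5 counting are not given in the sources used here. Both runs of a library were summed here. Of 46603 genes, 46005 matched a symbol.

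Counts were tested in R 4.3.3 with edgeR 4.0.16 (filterByExpr, TMM, robust quasi-likelihood fit), all 12 libraries at E12.5 in 1 fit and all 6 at E10.5 in another. Benjamini-Hochberg adjustment covered all genes tested, and a call was an adjusted p under 0.05. RPKM used the exon lengths of the count table. SE is the fold change over the root of the F statistic. The p-values measure the spread between single embryos (E12.5) or pools (E10.5). Sparse genes are limited by depth, and 3 counts or fewer were taken as the floor. Antisense genes covered at most 6.12% of the exons of a member (Ebf2).

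The members, lists and alternatives were chosen with earlier results of these data known. All 10 members were named, and from each list up to 4 called genes with the smallest adjusted p, or those with the smallest p where none was called. Alternatives were DESeq2 1.42.0, RLE and upper quartile scaling, no filter, a replicate block, either run alone, Xist as a covariate, a fit of just the 2 groups at issue, and leaving out libraries. The replicate block covered the replicate numbers of all groups of a stage. Residuals of Chd8+/- and Chd8neo/neo libraries that share a number correlated at 0.108, 0.195 and 0.199, with no stated source for a pairing. In the other comparisons at least 1 pair was at or under 0.1. The fits were tested on simulated data. Some marker genes are not reported here.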

Additional observations from a re-analysis of the deposited data

How the results depend on the processing

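Cacna2d2 was called lower in Chd8neo/- and in cKO in every alternative. The number of members called in Chd8neo/neo against Chd8+/+ was 2, and it was 3 with DESeq2 or no filter on low counts (Nhlh1 added), 1 with Xist as a covariate or the first run alone, 0 with only the 2 groups compared or with replicates 2 of Chd8+/- and Chd8neo/neo left out together (an alternative chosen after seeing the data), and 0 to 4 with 1 library left out. In Chd8neo/- it was 1, and 4 and 3 under those last settings. In Chd8neo/neo against Chd8+/- it was 1, and 0 under both of them and 0 to 3 with 1 library left out. It did not change in the other comparisons. The replicate block changed no call of a member, with 0, 2, 1, 1, 0 and 1 members called. Genes called numbered 1 to 12 (4 as reported) over all alternatives in Chd8+/-, 430 to 2605 (1534) in Chd8neo/neo, 1015 to 2687 (2158) in Chd8neo/-, 3 to 2100 (994) in Chd8neo/neo against Chd8+/-, 1 to 26 (3) in Chd8neo/- against Chd8neo/neo and 538 to 2722 (2110) in cKO. Of 976 log2 fold changes recomputed, 895 kept direction and call, 16 lost a call, 13 gained one and 52 changed sign, none of them called as reported. For Chd8+/- the sign changed with the first run alone for Ebf2 (-0.0218) and Nhlh1 (0.0025), and with both replicates 2 left out for Reln (0.104), Lhx1 (-0.178), Lhx5 (-0.325), Ebf2 (-0.0288), Ebf3 (-0.0715), Nhlh1 (0.037) and Nhlh2 (-0.0939). For Chd8neo/neo it changed for Ebf2 with Xist (-0.011) or the first run alone (-0.0039), for Ebf3 with no filter (-0.000423) or the replicate block (-0.00532), and with both replicates 2 left out for Lhx1 (-0.124), Ebf2 (-0.0366), Ebf3 (-0.13) and Nhlh2 (-0.0374). For Chd8neo/- it changed for Calb2 with Xist (-0.0303) or the first run alone (-0.0103), and at E10.5 for Lhx1 with Xist (0.562) and Nhlh2 with the second run alone (-0.0781) or upper quartile scaling (-0.00423). With 1 library left out, values that changed sign ranged in Chd8+/- from -0.138 to 0.104 (Reln), -0.178 to 0.801 (Lhx1), -0.324 to 0.419 (Lhx5), -0.0288 to 0.0715 (Ebf2), -0.0713 to 0.491 (Ebf3), -0.0707 to 0.0371 (Nhlh1) and -0.0938 to 0.425 (Nhlh2), in Chd8neo/neo from -0.125 to 0.532 (Lhx1), -0.0365 to 0.0963 (Ebf2), -0.13 to 0.0937 (Ebf3) and -0.0373 to 0.288 (Nhlh2), and in Chd8neo/- from -0.0621 to 0.125 (Calb2). In cKO they ranged from -0.118 to 0.935 (Calb2), -0.514 to 0.333 (Lhx1), -0.0755 to 0.208 (Lhx5), -0.135 to 0.361 (Ebf2), -0.144 to 0.501 (Nhlh1) and -0.366 to 0.248 (Nhlh2). The causes were not tested. At E10.5, Calb2 and Ebf1 rested on 13 to 172 counts per library and Lhx1 on 39 to 198. The part of depth in their scatter was not tested.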

Other observations

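The regions that border the cortex were followed by their markers at E10.5. Summed over 10 markers, the cortical hem and dorsal midline were at 593 to 729 CPM in cKO and 476 to 531 CPM in Ctrl libraries, with 9 of the 10 markers highest in cKO replicate 3. Meningeal and mesenchymal markers summed to 1017 to 1199 CPM in cKO and 820 to 906 CPM in Ctrl libraries. The antihem markers overlapped (42.7 to 50.2 CPM in cKO, 43.9 to 56.9 CPM in Ctrl), and those of the dorsal telencephalon did as well (756 to 818 and 725 to 904 CPM). Ventral telencephalic markers were at 22.6 to 34.4 CPM in cKO and 33.8 to 58.4 CPM in Ctrl libraries. These sums were not tested.

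Erythroid markers summed to 4165 to 6416 CPM in Chd8neo/- and 3118 to 3776 CPM in Chd8+/+ neocortices, endothelial and pericyte markers to 265 to 292 and 256 to 267 CPM, microglial markers to 25.9 to 32.5 and 29.7 to 32.0 CPM, and neural crest and ganglion markers to 76.0 to 93.6 and 78.6 to 80.0 CPM.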
